A study of Homo sapiens with 72 samples.

Results

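Translation was blocked for 3 h in A375 cells depleted of CTU2, and the mRNAs left in the cytoplasm were compared with those of cells in which translation went on. A375 is an established human melanoma line. The comparison uses 6 of the 72 libraries of the series, chosen by their titles: siCTU2 cells with triptolide alone for 3 h (T arm, 3 replicates) and siCTU2 cells with triptolide and cycloheximide for 3 h (TCHX arm, 3 replicates). All cells had received a pool of 2 siRNAs against CTU2 for 42 h, and all received triptolide at 25 µM, so the arms differ in cycloheximide (100 µg/ml) alone. Cells given the control siRNA siGL2 and treated in the same way, and the siCTU2 cells harvested at 0 h and 5 h, were used for comparison. Cytoplasmic RNA was measured with QuantSeq, which reads the 3′ end of polyadenylated transcripts. The siRNAs were pooled, so an effect of either siRNA alone cannot be told apart from that of the pool. Nothing in the labels says that the replicates came from separate cultures, and p-values therefore measure only the spread between these samples, which may be technical.

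The 6 libraries held 9376857 to 15534331 counts over 16557 to 17495 genes. Log2 levels over 9820 genes gave a Pearson r of 0.981 to 0.988 between libraries of an arm and 0.963 to 0.977 between arms, where genes are the points and no replicates. The melanoma markers SOX10, MITF, S100B, S100A1 and CSPG4 were each at 47.5 CPM (counts scaled to a common library total) or more in every library, DCT was at 24.3 to 85.9 CPM and PMEL at 2.77 to 6.63 CPM, while MLANA and TYR were at 0.5 CPM or less. The 4 immune markers together reached at most 0.547 CPM, and the defining fibroblast markers COL1A1 and COL1A2 at most 0.533 CPM each. Of 4 keratinocyte markers, KRT10 alone was abundant, at 241 to 286 CPM, and KRT5 and KRT1 had no count. Some markers differed between the arms: SOX10 was higher with cycloheximide (log2 1.23, edgeR adjusted p = 1.81e-25), as was MITF (0.73), while S100B was lower (-0.18, edgeR adjusted p = 0.0178). The 4 fibroblast markers summed to 8.21 to 10.3 CPM in T and 5.44 to 6.45 CPM in TCHX, nearly all of it LUM. Their part in the results was not tested. In bulk RNA, fewer cells and less RNA per cell cannot be told apart.

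Triptolide stops the making of new mRNA by blocking transcription initiation, so what is left after a few hours reflects how fast each mRNA is broken down. Many mRNAs are degraded faster while ribosomes move along them. Nonsense-mediated decay (NMD), which acts on premature or upstream stop codons, deadenylation triggered by slow or inefficient decoding, and the turnover of many short-lived regulatory mRNAs all depend on translation. Cycloheximide freezes elongating ribosomes, and an mRNA whose decay needs translation is then kept. CTU2 with its partner CTU1 adds sulfur to the wobble uridine of the tRNAs that read AAA, GAA and CAA codons, and its loss slows the decoding of these codons. The comparison asks which mRNAs were kept when translation was blocked in cells that lack this enzyme.

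The knockdown rested on a pair of siRNAs, which are shown with the control because they define the cells studied here.
siCTU2#1: cuaucaagcucaugaccaa
siCTU2#2: gcgugaacaugaaggacuu
siGL2: cguacgcggaauacuucga
Both siCTU2 sequences matched the CTU2 coding sequence over all 19 bases. The site of siCTU2#1 lies in exon 8 of 15 (chr16:88713389-88713407, plus strand) and that of siCTU2#2 in exon 13 (chr16:88714907-88714925), on GRCh38 with the GENCODE annotation. At 3 h CTU2 had 8, 6 and 9 reads in the T libraries of siCTU2 cells, and 2, 20 and 6 reads in the TCHX libraries. The siGL2 libraries of the same time held 214 to 369 reads of CTU2. Each of the 6 libraries thus bore out its siRNA label, and CTU2 was too low in siCTU2 cells to enter the test of cycloheximide.

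Cycloheximide raised far more mRNAs than it lowered. Of 12433 genes tested, 2665 (21.4%) were higher in the TCHX arm and 151 (1.21%) were lower (edgeR quasi-likelihood test with the replicate number as a block, Benjamini-Hochberg adjusted p under 0.05). The higher genes rose by a median of 0.60 on the log2 scale (1.52-fold). Of these, 631 rose at least 2-fold, 122 at least 4-fold and 14 at least 8-fold. The median fall of the lower genes was 1.17-fold. When each gene was tested against a 1.5-fold change rather than against no change, 500 genes (4.02%) were higher and 5 (0.0402%) lower. In 2227 of the 2665 higher genes the lowest TCHX library lay above the highest T library, and in 62 of the 151 lower genes the arms did not overlap. Calling the genes on these same values largely fixes such counts, so they are no separate support.

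These counts depend on the scale, and the total amount of mRNA in each arm was not measured. Counts were scaled to 197 genes whose share of the library grew by a factor of 1.1 or more under the transcription block. The study calls such genes stable, but that they kept their absolute amount was assumed here and not measured. The shares of the 0 h level given below rest on the same assumption. On this scale the median gene was 0.13 log2 units higher with cycloheximide. With TMM scaling, which sets the typical gene to no change, the median gene stood at -0.00, 1719 genes (13.8%) were higher and 1298 (10.4%) lower. All 1719 were among the 2665, and all 151 lower genes were among the 1298. Without the replicate block 1590 genes were higher and 13 lower. A core of 1421 genes was higher under TMM scaling, without the block and after the arms' difference at 0 h was subtracted, and 8 genes were lower under all of these.

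**Figure D1:**
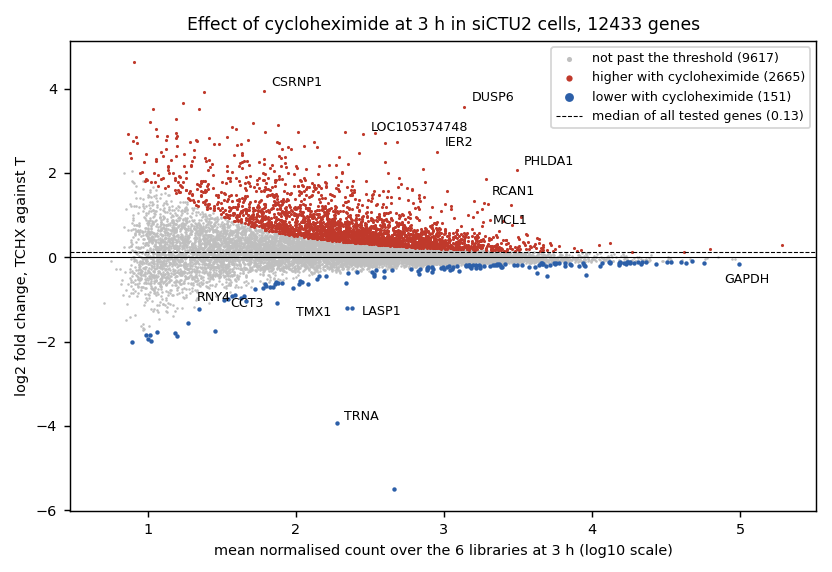
Each point is a gene, with its mean normalised count over the 6 libraries at 3 h on the x axis (log10 scale) and its log2 fold change between TCHX and T in siCTU2 cells on the y axis. Red points are the 2665 genes called higher and blue points the 151 called lower, and the dashed line marks the median of all genes at 0.13. DUSP6 stands out as abundant and strongly raised, while LASP1 and TMX1 lie well below the median line. The lowest point, unlabelled, is a row for an extra gene copy that is not reported.

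Among the genes with the strongest rise was DUSP6. This gene, which encodes a phosphatase that switches off ERK, had 147, 277 and 223 normalised counts in the T libraries and 2535, 2574 and 2465 in the TCHX libraries. The arms lie far apart, and the TCHX replicates are nearly equal. The fold change was 11.8 (log2 3.57, SE 0.09, edgeR adjusted p = 6.1e-42). Of its level at 0 h, taken as the mean of both arms' 0 h libraries here and in all such shares, 4.8% was left at 3 h in the T arm and 56.2% in the TCHX arm.

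CSRNP1, a transcription factor gene, had the largest rise among the genes named by the fixed rule, from 11.2, 12.3 and 0.678 normalised counts in T to 117, 164 and 62.6 in TCHX (log2 3.93, SE 0.33, edgeR adjusted p = 9.58e-16). Its T libraries held only 1 to 13 reads, so this fold is less certain than that of DUSP6. RGS2, which dampens G-protein signalling, rose by 3.18 on the log2 scale. MAP3K14, the kinase NIK of the NF-kB pathway, rose by 3.14, and TENT5B, a poly(A) polymerase family member, by 3.09. SOCS3, an inhibitor of cytokine signalling, rose by 3.04, and C1orf74 by 2.97. In C1orf74 replicate 2 of the T arm had 38.8 normalised counts against 4.31 and 6.1 in the others, and without replicate 2 the log2 change was 4.23.

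IER5, an immediate early gene, rose from 44, 62.4 and 40.7 normalised counts to 366, 455 and 324 (log2 2.96, SE 0.16). GADD45B, a stress-response gene, rose as much (2.96, SE 0.22), and ADM, which encodes the vasodilator peptide adrenomedullin, by 2.94. KLHL25, a substrate adaptor of a ubiquitin ligase, rose by 2.84. In each of these genes 12% or less of the 0 h level was left in T, against 49.7% to 85.9% in TCHX.

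Abundant genes moved with smaller errors. PHLDA1, an ERK-responsive gene, had 990, 1714 and 987 normalised counts in T and 4837, 5420 and 4716 in TCHX (log2 2.06, SE 0.07, edgeR adjusted p = 3.97e-35). SOX9, a transcription factor of neural crest and cartilage, had 699, 1165 and 663 in T and 3156, 3159 and 2670.1 in TCHX (log2 1.87, SE 0.08). In both genes replicate 2 was the highest T library, yet it stayed well below every TCHX library. IER2 rose by 2.50 on the log2 scale, IRF2BPL by 2.70, TXNIP, which binds thioredoxin and limits glucose uptake, by 2.09, and RND3, an atypical small GTPase, by 1.79. RCAN1, a calcineurin inhibitor, had 1103, 1090.2 and 1059 in T and 2912, 2702 and 2398 in TCHX (log2 1.30, SE 0.07). IRS2, an adaptor of the insulin receptor, rose by 1.27.

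The arms did not overlap in any of these 20 risers, which the way they were chosen largely fixes. Replicate 2 was the highest T library in 14 of the 20, in 62.4% of all higher genes and in 51.6% of all genes tested. It was also the highest TCHX library in 15 of the 20. With LOC105374748 set aside, 4.78% to 29.9% of the 0 h level was left in T and 47.7% to 85.9% in TCHX. LOC105374748, an uncharacterised transcript, was the exception. It had 62.1, 59.6 and 76.6 normalised counts in T and 489, 351 and 677 in TCHX, against a mean of 58.1 at 0 h, so with cycloheximide it reached 871% of its starting level although transcription was blocked.

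**Figure D2:**
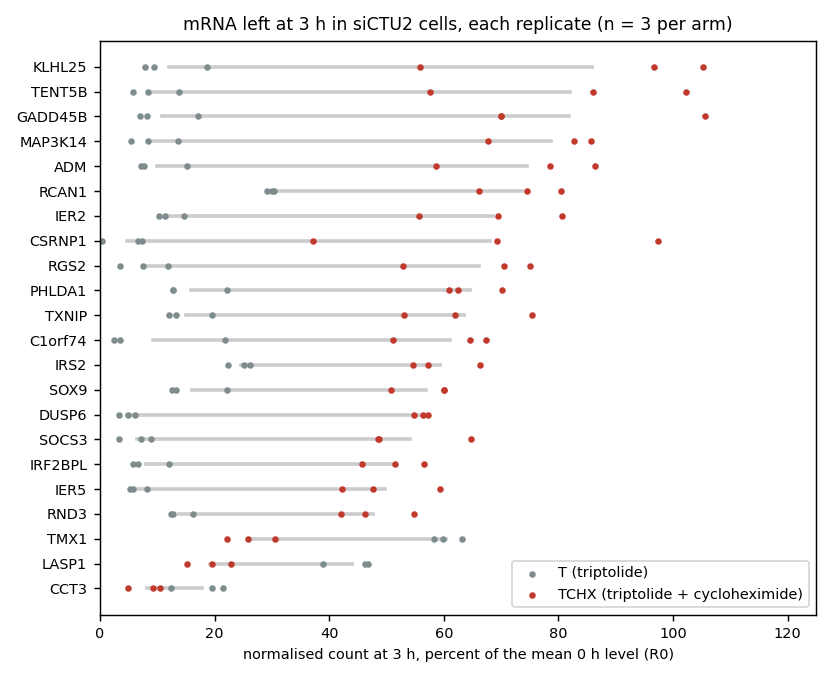
Each row is a gene and each point a library at 3 h in siCTU2 cells, as a percent of the gene's mean normalised count at 0 h (x axis, n = 3 per arm). Grey points are T, red points TCHX, and the bar joins the means. In 19 risers the T points lie on the left and the TCHX points on the right, with DUSP6 at 4.8% and 56.2%. LASP1, TMX1 and CCT3 at the bottom show the opposite order.

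How far an mRNA falls in control cells offers a grouping by counts from libraries other than these 6. It is not independent of the 6 libraries, which helped to set the scale and the genes tested. A gene could pass the filter on low counts through its TCHX libraries alone. It was chosen after the values had been seen, and is given as a description. Of 558 tested genes with less than 25% of their 0 h level left in the T arm of siGL2 cells at 3 h, 391 (70.1%) were higher with cycloheximide in siCTU2 cells, with a median log2 change of 1.27. The share was 51.4% of 1548 genes with 25% to 50% left, and 25.2% of 5024 genes with 50% to 75% left. It was 4.29% of 4335 genes with 75% to 100% left, where the median change was -0.01. In the last group, 510 genes with at least 100% left, it was 3.73% and the median change was 0.04, slightly above that of the group before. With TMM scaling the medians of the 5 groups were 1.14, 0.44, 0.06, -0.14 and -0.08.

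The end point with cycloheximide was more alike than the decay without it. Over the 2662 higher genes with a mean of at least 10 normalised counts at 0 h, the median left at 3 h was 50.3% in T (quartiles 35.4% and 60.4%) and 75.3% in TCHX (quartiles 66.8% and 82.9%). Over 12135 tested genes it was 70.9% in T and 77.5% in TCHX. Only 140 of the 2662 (5.26%) exceeded their 0 h level with cycloheximide, against 6.15% of all genes. Protein-coding genes made up most of the calls. Of 10854 tested, 2552 (23.5%) were higher, against 44 of 628 long non-coding RNAs (7.01%), whose median level in T was lower (31.2 against 233 normalised counts).

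Signalling and transcription factor lists held many higher genes, to be read against the 21.4% of all genes tested and their median of 0.13. Of 17 tested immediate early transcription factors and MYC, 14 (82.4%) were higher and none lower, with a median log2 change of 1.19. IER2, IER5 and FOSL1, a FOS family member, had the smallest p-values, and FOSL1 rose from 456, 874 and 318 to 1607, 1828 and 1168 normalised counts (log2 1.56, SE 0.09). Of 16 ERK feedback genes, which dampen the pathway that drives BRAF-mutant melanoma, 12 (75%) were higher (median 1.18), among them DUSP6, PHLDA1 and the phosphatase gene DUSP4 (log2 1.25, SE 0.08). Of 12 TGF-beta feedback and ID genes 8 (66.7%) were higher (median 1.07), with BAMBI, a decoy receptor, at 1.20, TGIF1 at 1.47 and ID1 at 1.39. Of 11 KLF transcription factor genes 8 (72.7%) were higher (median 0.78). KLF10 rose by 1.88 and KLF6 by 1.78, but KLF6 reached only 14.7% of its 0 h level with cycloheximide, from 4.04% in T.

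Stress mRNAs and genes of the decay machinery differed in how many members were higher. Of 15 stress mRNAs with upstream open reading frames or known decay by NMD, 12 (80%) were higher (median 1.00). GADD45B, DDIT4, an inhibitor of mTORC1, and GADD45A rose by 2.96, 2.37 and 1.36. ATF4, the transcription factor of the integrated stress response, had 1352, 1457 and 1237 normalised counts in T and 2136, 2437 and 2178 in TCHX (log2 0.74, SE 0.06). Of 13 NMD factors 9 (69.2%) were higher (median 0.33), with SMG9 at 1.34, SMG8 at 0.94 and UPF2 at 0.77. Of 13 AU-rich element binders and deadenylation adaptors 8 (61.5%) were higher and ELAVL1 was lower, with a median of 0.88. ZFP36L1 and ZFP36L2, which recruit deadenylases to AU-rich mRNAs, rose by 1.63 and 1.42, and BTG1 by 0.88. Of 11 deadenylase genes 3 (27.3%) were higher, a share near the 21.4% of all genes (median 0.10, and -0.03 with TMM scaling), with CNOT4 at 0.98 and PAN3 at 0.55.

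Several smaller lists had a few strong members, with shares to be read against the 21.4% of all genes tested. Of 13 NF-kB pathway genes 6 (46.2%) were higher (median 0.33), with BIRC2 at 0.50. The list was led by NFKBIA, the inhibitor IkB-alpha, which rose from 29.3, 59.6 and 29.1 to 215, 328 and 170.2 normalised counts (log2 2.61, SE 0.18). Of 12 BCL2 family genes 5 (41.7%) were higher (median 0.30). The survival factor MCL1 rose from 957, 1380.5 and 1044 to 2492, 2977 and 2004 (log2 1.14, SE 0.07), the pro-death gene BBC3 by 1.86 and BAK1 by 0.92. Among 18 SR splicing factors, CLK kinases and cyclin L genes, 11 (61.1%) were higher and SRSF9 was lower (median 0.24). Cyclin L1 (CCNL1), CLK1 and SRSF4 rose by 2.00, 2.37 and 0.66. Of 16 snoRNA host transcripts, known NMD targets in several cases, 6 (37.5%) were higher (median 0.16), with SNHG7 at 1.29 and SNHG1 at 0.68. With TMM scaling 6 of these transcripts were higher and 4 lower (median 0.03). With the 0 h difference subtracted 10 were higher and 0 lower (median 0.37, against 0.24 for all genes).

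Zinc finger mRNAs formed the most numerous group. Of 355 tested numbered ZNF genes, 188 (53%) were higher and none lower, against 21.4% of all genes. Their median log2 change was 0.71, and 0.58 with TMM scaling. ZNF503 rose by 2.18 (SE 0.16), ZNF281 by 1.57 (SE 0.12) and ZNF827 by 0.92 (SE 0.07). By their median change, cell cycle lists lay nearer to the typical gene. Of 32 DNA replication and repair genes 12 (37.5%) were higher (median 0.23), with BARD1 at 1.06, BLM at 0.77 and MSH6 at 0.40. Of 24 mitosis genes 11 (45.8%) were higher (median 0.19), with HJURP at 1.01 and CENPE at 0.50. Both shares lay above the 21.4% of all genes. With TMM scaling 5 of the mitosis genes were higher and 1 lower (median 0.06), and with the 0 h difference subtracted 6 were higher. Of 18 replication-dependent histone genes 3 (16.7%) were higher (median 0.21), with H4C3 at 0.55. With the 0 h difference subtracted H4C3 stood at 0.11 (edgeR adjusted p = 0.515), and with TMM scaling as well at -0.13. QuantSeq primes on poly(A) tails, which most of these mRNAs lack.

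Housekeeping genes were seldom among the higher genes, which made up 21.4% of all genes tested. None of 74 cytosolic ribosomal protein genes was higher and 22 were lower (29.7%, against 1.21% of all genes), with a median of -0.08. The ribosomal protein gene RPLP1 had 60927, 63766 and 55502 normalised counts in T and 56189, 57272 and 49866 in TCHX (log2 -0.14, SE 0.03), FAU changed by -0.17 and RPS28 by -0.15. The arms overlapped in all 3 of these genes. None of 68 respiratory chain subunit genes was higher and 7 were lower (10.3%, against 1.21% of all genes, median -0.06), with NDUFB7 at -0.25 and COX6A1 at -0.19. Of 15 glycolysis genes none was higher and 2 were lower (13.3%, against the same 1.21%, median -0.09), among them GAPDH at -0.15. Of 33 proteasome genes 2 (6.06%) were higher and PSMB6 was lower (-0.14, median -0.00). Of 18 cytosolic aminoacyl-tRNA synthetase genes 1 (5.56%) was higher, and KARS1 changed by -0.12 (edgeR adjusted p = 0.0832).

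The direction of these housekeeping lists depends on the reference. With TMM scaling 64 of 74 ribosomal protein genes and 53 of 68 respiratory chain genes were lower. After the arms' difference at 0 h was subtracted, the ribosomal protein median was 0.06 with 9 genes higher and 2 lower, and the respiratory chain median was 0.11 with 5 higher and none lower. Both lists were slightly lower in TCHX at 0 h already, with medians of -0.15 and -0.17 against -0.09 for all genes. Among the enzymes that modify wobble uridine, 2 of 11 (18.2%) were higher, a share below the 21.4% of all genes. They were MOCS3, which acts upstream in the sulfur supply of the CTU1 and CTU2 complex, and ALKBH8 (0.65, SE 0.17). MOCS3 had 62.5 ± 9.51 normalised counts in T and 173 ± 16 in TCHX (SD, n = 3, log2 1.47, SE 0.18).

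**Figure D3:**
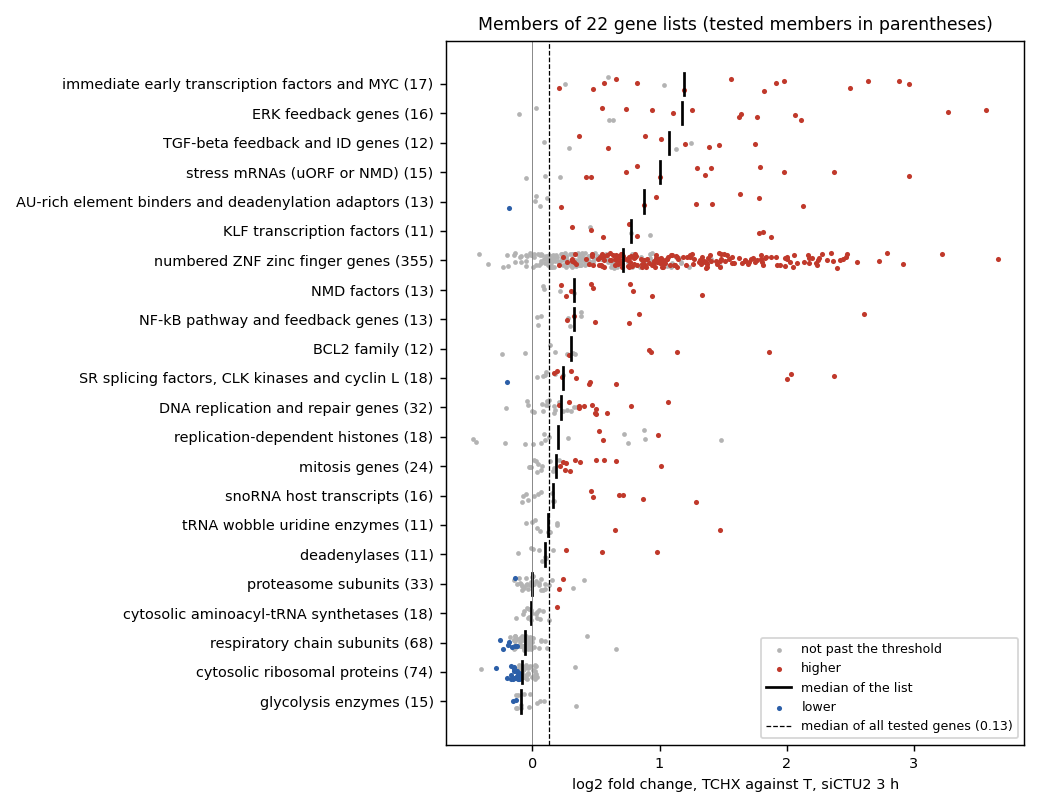
Each point is a tested member of a gene list, with its log2 fold change between TCHX and T at 3 h in siCTU2 cells on the x axis. Red and blue points passed the threshold as higher or lower, the black bar is the median of the list and the dashed line the median of all genes at 0.13. The lists run from immediate early genes, with a median of 1.19, to glycolysis enzymes at -0.09, and points are spread vertically for display.

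The opposite change was rare but clear in a few mRNAs. LASP1, an actin-binding scaffold protein, had 297, 356 and 352 normalised counts in T and 149, 174 and 116 in TCHX (log2 -1.21, SE 0.14, edgeR adjusted p = 1.59e-10). TMX1, a membrane thioredoxin of the endoplasmic reticulum, had between 296 and 321 in T and 131, 155 and 113 in TCHX (log2 -1.21, SE 0.14, edgeR adjusted p = 2.59e-10). CCT3, a subunit of the chaperonin that folds actin and tubulin, had 112, 70.9 and 123 in T and 28.4, 60.4 and 52.9 in TCHX (log2 -1.09, SE 0.24, edgeR adjusted p = 0.000297). The arms did not overlap in any of the 3 genes. CCT3 rests on fewer reads, and without replicate 1 its log2 change was -0.74 (edgeR adjusted p = 0.073).

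The other members named for a fall depended on the libraries used. TRNA, a mitochondrial tRNA gene, had 1050.4 normalised counts in replicate 3 of the T arm against 23.3 and 14.2 in replicates 1 and 2 and 12.4 to 16.8 in TCHX. Its log2 change of -3.93 was -0.51 without replicate 3 (edgeR adjusted p = 0.678). RNY4, a small non-coding Y RNA, had 51.8, 61.5 and 69.1 in T and 12, 50.8 and 30.9 in TCHX (log2 -1.04, SE 0.31, edgeR adjusted p = 0.00819), and the call was lost without replicate 1 (-0.70) and without replicate 3 (-0.99).

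LASP1, TMX1 and CCT3 also had low levels in siCTU2 cells at the start, given here as a description. In the T arm at 0 h they had 805 ± 50.8, 520 ± 76.2 and 610 ± 22.1 normalised counts in siCTU2 cells (SD, n = 3), against 3081 ± 341, 1577 ± 119 and 6913 ± 321 in siGL2 cells. The closest windows to siCTU2#2 in their coding sequences are shown beside the target site, with capitals for bases identical to the siRNA and T in place of U.
CTU2: GCGTGAACATGAAGGACTT
LASP1: cacTGAACATGAAGaACTa
CCT3: tgGTGgACATGAAGGAacT
TMX1: caagGActAaGAAGGACTT
SEPTIN11: GCGTGAACATGgAGGACTT
The windows of LASP1 (exon 2, chr17:38878129-38878147) and CCT3 (exon 13, chr1:156310613-156310631, minus strand) share 14 of 19 bases with siCTU2#2, with 11 and 10 of them in an unbroken run. That of TMX1 (exon 4, chr14:51247127-51247145) shares 12, with a run of 9. Of 10833 genes searched, 1412 (13%) had a window with at most 5 mismatches to either siCTU2 siRNA. Among these, 13 (0.921%) were called lower, against 1.21% of all genes tested. With at most 4 mismatches 4 of 183 genes (2.19%) were lower, with at most 3 mismatches 2 of 20 (10%), and with at most 2 mismatches 1 of 2. The median log2 change of the 1412 genes was 0.17.

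The closest matches outside CTU2 were picked after their values had been seen. SEPTIN11, a septin cytoskeleton gene, shares 18 of 19 bases with siCTU2#2 (exon 9, chr4:77020553-77020571). It had 89.7, 80.4 and 119 normalised counts in T and 79.7, 83.1 and 82.9 in TCHX (log2 -0.22, SE 0.20, edgeR adjusted p = 0.506), so the arms overlapped. SEPTIN11 was already low at the start: in the T arm at 0 h it had 243 ± 49.3 in siCTU2 cells and 2456 ± 35.3 in siGL2 cells (SD, n = 3). ANXA5, which binds membrane phosphatidylserine, shares 17 of 19 bases with siCTU2#1 in its 3′ UTR, and was lower with cycloheximide (log2 -0.34, SE 0.09, edgeR adjusted p = 0.00202), but not past the threshold without replicate 3 (-0.16) or without the replicate block (edgeR adjusted p = 0.139). It was already lower in the TCHX arm at 0 h (log2 -0.44, SE 0.09, edgeR adjusted p = 0.00163), and with that subtracted its change was 0.10. In the T arm at 0 h ANXA5 had 1507 ± 95.8 normalised counts in siCTU2 cells and 4220 ± 473 in siGL2 cells (SD, n = 3). Whether siRNA matches play a part in these falls was not tested.

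The arms were also compared at 0 h and 5 h. Cells of the TCHX arm had received cycloheximide shortly before triptolide, so its 0 h libraries are not untreated. At 0 h, 28 of 12552 genes (0.223%) were higher and 319 (2.54%) lower in the TCHX arm, and none passed without the replicate block, where 1422 genes had an unadjusted edgeR p under 0.05. The 20 risers lay between -0.38 and 0.21 at 0 h and none passed the threshold. Of the genes higher at 3 h, 30.3% had a positive log2 change at 0 h, against 30.1% of all genes.

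At 5 h, replicate 3 of the TCHX arm goes against its siRNA label. The library so labelled had 99.3 normalised counts of CTU2 against 1.96 and 1.54 in replicates 1 and 2, and 1042 of LASP1 against 17.6 and 26.1. With all 3 replicates no gene passed the threshold in edgeR, although 1697 had an unadjusted p under 0.05. With replicate 3 left out of both arms, 683 of 12340 genes (5.53%) were higher and 31 (0.251%) lower. Of the 2625 genes called higher at 3 h and tested at 5 h, 2447 (93.2%) rose in this fit, against 55.4% of all genes, and 642 (24.5%) passed the threshold, which is 94% of the 683. The 2 times share no libraries, but they share the scale. Without replicate 3, 18 of the 20 risers were higher at 5 h, with log2 changes of 1.24 to 4.68 over all 20. LASP1 had 159 and 202 normalised counts in T and 17.6 and 26.1 in TCHX (log2 -3.04, SE 0.38, edgeR adjusted p = 0.000432), and TMX1 changed by -2.31 (SE 0.33, edgeR adjusted p = 0.00101). CCT3 was down to 16.1 and 36.3 in T and 7.83 and 10.8 in TCHX (log2 -1.43, SE 0.70, edgeR adjusted p = 0.336). The test of 5 h minus 3 h called no gene in edgeR with all replicates, with 504 genes at an unadjusted p under 0.05.

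The control cells show how much of this is shared. In siGL2 cells at 3 h, 1527 of 12121 genes (12.6%) were higher and 493 (4.07%) lower with cycloheximide. The siRNA conditions share no libraries at 3 h, but they share the scale. Of 2625 genes called higher in siCTU2 cells and tested in siGL2 cells, 1265 (48.2%) were called higher there too, which is 82.8% of the siGL2 calls. Another 10 were called lower there. All 19 risers tested in siGL2 cells were called higher in them. Of 146 genes called lower in siCTU2 cells, 55 (37.7%) were called lower in siGL2 cells, which is 11.2% of those calls. The larger number of calls in siCTU2 cells is not by itself a difference between the conditions.

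The difference of the effect was therefore tested directly. It was larger in siCTU2 cells for 90 of 13114 genes (0.686%) and smaller for 25 (0.191%), while the median difference over all genes was 0.08. Without the replicate block 3 and 1 genes passed. The balance of the directions depends on the scale: with TMM scaling 46 were larger and 35 smaller, and with scaling genes stable at both 3 h and 5 h 8 were larger and 18 smaller. PHC2, a Polycomb subunit, had 223, 221 and 225 normalised counts in T and 637, 606 and 574 in TCHX in siCTU2 cells. In siGL2 cells it had 897, 864 and 719 in T and 962, 1170.5 and 904 in TCHX. PHC2 rose in both, and the effect was larger by 1.15 on the log2 scale in siCTU2 cells (SE 0.13, edgeR adjusted p = 5.47e-06).

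TMEM158, a Ras-induced membrane protein gene, was far lower in siCTU2 cells at 3 h. It had 102, 102 and 148 normalised counts in T and 235, 185 and 333 in TCHX in siCTU2 cells, against 2874, 2958 and 2793 in T and 3083, 3019 and 2864 in TCHX in siGL2 cells. The difference was 1.03 (SE 0.11, edgeR adjusted p = 5.47e-06). IRS2 and ZFP36L2 rose in both conditions, by 0.61 and 0.75 more in siCTU2 cells.

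**Figure D4:**
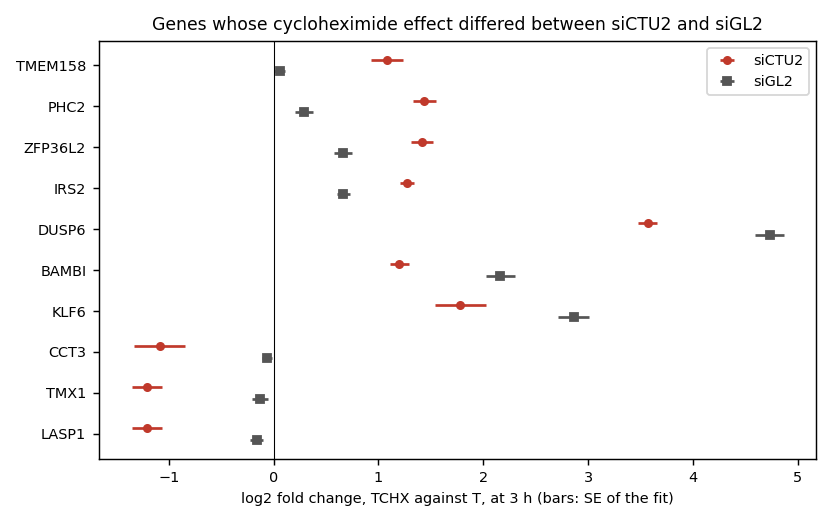
For 10 genes, the log2 fold change between TCHX and T at 3 h is shown for siCTU2 cells (red circles) and siGL2 cells (grey squares), with bars for the standard error of the fit. In the main fit PHC2 and TMEM158 rise more in siCTU2 cells, and DUSP6, BAMBI and KLF6 rise more in siGL2 cells. LASP1, TMX1 and CCT3 fall past the threshold in siCTU2 cells only. The differences of PHC2 and TMX1 alone passed in all 11 alternative fits, while that of CCT3 passed in 6 and that of KLF6 in 5.

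Other genes rose less in siCTU2 cells. DUSP6 had 50.3, 55.1 and 29.6 normalised counts in T and 1054, 1353 and 1221 in TCHX in siGL2 cells, a log2 change of 4.73 (SE 0.14). The rise in siCTU2 cells was smaller by 1.16 on the log2 scale (SE 0.21, edgeR adjusted p = 0.00342), and the TCHX level itself was higher there. BAMBI and KLF6 also rose less, with differences of -0.96 and -1.07. For LASP1 the difference was -1.04 (SE 0.13, edgeR adjusted p = 3.76e-05), for TMX1 -1.08 (SE 0.15, edgeR adjusted p = 8.26e-05) and for CCT3 -0.99 (SE 0.19, edgeR adjusted p = 0.0051). In siGL2 cells these 3 mRNAs changed by -0.16, -0.13 and -0.06 with cycloheximide, none past the threshold. The differences of PHC2 and TMX1 passed in all 11 alternative fits, and those of LASP1 and TMEM158 in all but the fit without the replicate block (edgeR adjusted p = 0.186 and 0.195). That of IRS2 passed in 9 of the 11, but not without the block (edgeR adjusted p = 0.68). The differences of DUSP6, CCT3, KLF6, BAMBI and ZFP36L2 were lost without replicate 3 (edgeR adjusted p = 0.147, 0.121, 0.267, 0.0569 and 0.0561). In the same order, they were also lost without the block (edgeR adjusted p = 0.21, 0.304, 0.783, 0.428 and 0.754). They passed in 7, 6, 5, 9 and 7 of the 11 fits. Those of CCT3 and KLF6 were lost without replicate 1 too (edgeR adjusted p = 0.134 and 0.435). With DESeq2's Wald test those of DUSP6, CCT3 and KLF6 did not pass (adjusted p = 0.221, 0.545 and 0.0907).

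**Figure D5:**
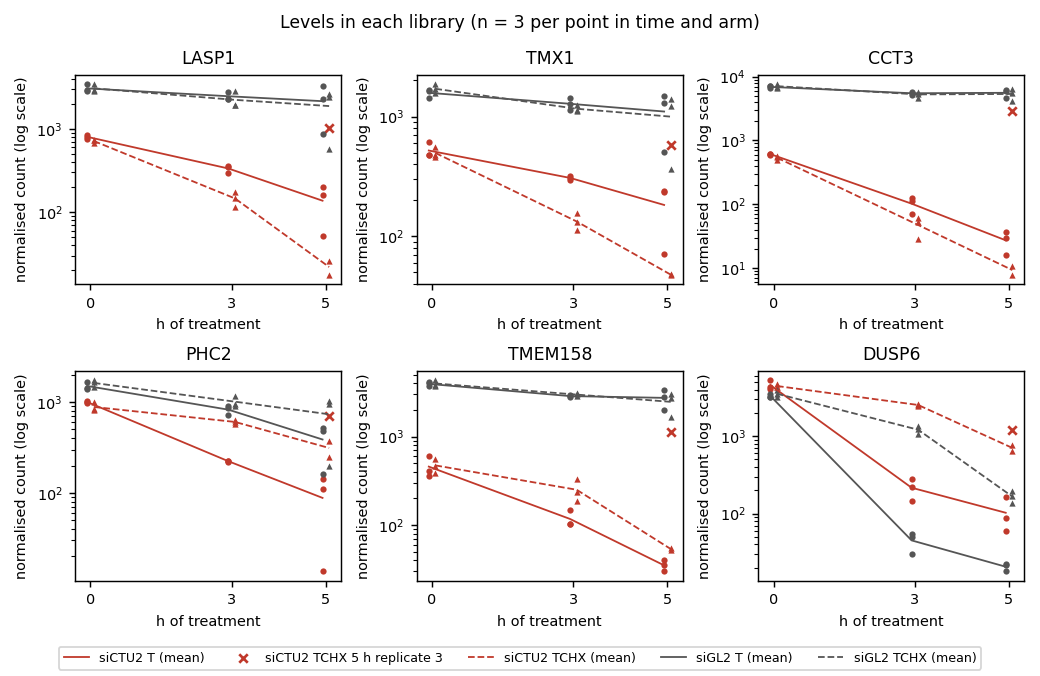
Normalised counts (log scale) of 6 genes at 0, 3 and 5 h, with siCTU2 cells in red and siGL2 cells in grey. Circles and solid lines are T, triangles and dashed lines TCHX, points are libraries and lines join the means. The cross is replicate 3 of siCTU2 TCHX at 5 h, left out of its mean. In siCTU2 cells LASP1 falls to 17.6 and 26.1 with cycloheximide at 5 h, against 159 and 202 in the same replicates of T. DUSP6 stays higher with cycloheximide than without it at 3 h in both.

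The coding sequences of the kept mRNAs were described because CTU2 acts on AAA, GAA and CAA decoding. Sequences were matched for 2549 of 2665 higher genes and 10833 of all genes tested, using the longest coding sequence of each gene. The median share of AAA codons was 2.91% in the higher genes (95% interval of the median 2.79% to 3.01%) and 2.38% in all genes (2.33% to 2.42%). GAA stood at 3.34% against 2.87% and CAA at 1.24% against 1.05%. The partner codons differed less, with AAG at 3.17% against 3.12%, GAG at 3.79% against 3.70% and CAG at 3.37% against 3.25%. GC at the third codon position was 52.5% against 57.2%, and it moves together with these codon shares.

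The codon shares changed with the size of the effect that was asked for. In the 500 genes past a 1.5-fold change, AAA was at 2.34%, GAA at 2.63% and third-position GC at 58.3%, near or past the values of all genes. In the 1527 genes higher in siGL2 cells AAA was at 2.58% and GAA at 2.99%. The 90 genes with a larger effect in siCTU2 than in siGL2 cells had median shares of 2.38% for AAA, 3.07% for GAA and 1.25% for CAA, against 2.36%, 2.85% and 1.05% in all genes of that test. For the 90 genes the intervals of the medians were 1.88% to 2.70% for AAA, 2.59% to 3.66% for GAA and 0.90% to 1.52% for CAA. Each interval held the median of all genes of that test, so a raised share is not shown for these codons. No test was made on these medians.

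Length differed as well. The median coding length was 1716 bases in the higher genes, 1440.0 in all genes and 780.0 in the lower genes, and the median 3′ UTR was 1483, 1223 and 347 bases. The AU-rich nonamer UUAUUUAUU, read on the mRNA strand, occurred in the 3′ UTR of 301 of the 2549 higher genes (11.8%, exact 95% binomial interval 10.6% to 13.1%), 1008 of 10833 genes in all (9.31%) and 4 of 123 lower genes (3.25%). Of the 20 risers, 19 had a coding sequence in the annotation and 4 carried the nonamer, which is shown in capitals to place it in genes whose values are given above.
CSRNP1: ucucuggauUUAUUUAUUuguuuuaac
IER5: ugucuuccuUUAUUUAUUuauuuauuu
PHLDA1: gauuuaugaUUAUUUAUUaguuuuuuu
SOX9: uugcuaaaaUUAUUUAUUuuguaagga
These windows lie in the last exons at chr3:39142886-39142912 (minus strand), chr1:181092444-181092470, chr12:76029788-76029814 (minus strand) and chr17:72125499-72125525. IER5 holds the nonamer 3 times. A match is a description of the sequence, and longer 3′ UTRs have more room for it.

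The study's measure of translation-dependent decay, the TDD index, sets the amount kept against the starting level. It is the TCHX count minus the T count, divided by the count at 0 h. The 0 h count was taken here as the mean of both arms of the same replicate, a choice that the study's formula does not spell out. In siCTU2 cells at 3 h it was 0.516 ± 0.0323 for DUSP6 and 0.706 ± 0.0726 for GADD45B, and -0.248 ± 0.0582 for LASP1 (SD, n = 3). Over the 2662 higher genes its median was 0.247. Over 12288 genes its median was 0.0997, 0.0678 and 0.0456 in the siCTU2 replicates and 0.00722, 0.0467 and 0.0184 in the siGL2 replicates. The groups overlapped, and their means were 0.071 ± 0.0272 and 0.0241 ± 0.0203 (SD, n = 3). The difference was tested (two-sided exact permutation test, p = 0.2, where the smallest possible p is 0.1). With so few replicates this test could not pass the threshold, so it does not decide whether the conditions differ. With each arm divided by its own 0 h library the groups did not overlap. The siCTU2 replicates then lay at 0.0648 to 0.19 and the siGL2 replicates at -0.0371 to 0.0619. With TMM scaling both means were near 0 (-0.00106 and -0.00213).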

How the data were processed

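The authors deposited raw counts of reads for each gene. They had trimmed forward reads with fastp 0.20.1, mapped them to GRCh38.p13 with HISAT2 2.2.1 and counted reads on NCBI genes with htseq-count 0.13.5. The methods name no molecular identifiers. Intervals of medians are over genes, and the binomial interval is over genes with or without a motif. Groups and replicate numbers came from sample titles. Library columns left without a sample numbered 0.

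Counts were scaled by the median of ratios over 197 stable genes, after the study's methods, and given as normalised counts. Genes passing filterByExpr were tested with edgeR 4.0.16 (R 4.3.3), quasi-likelihood, arm plus replicate block, Benjamini-Hochberg threshold 0.05. Comparing the replicates showed that the numbers pair the siCTU2 samples at 3 h: deviations from the arm means correlated at 0.161, 0.355 and 0.371 for equal numbers and at most at -0.0532 otherwise. In siGL2 cells the values were 0.0381, 0.272 and 0.386, and at most 0.0846 otherwise, so the numbers pair them less surely. In siCTU2 cells at 5 h they were 0.447, -0.235 and 0.129, and up to 0.365 otherwise, so the numbers do not clearly pair those libraries. The block was kept in both for like fits. Beside each arm test, the difference between siCTU2 and siGL2 cells was fitted as an interaction. The SE belongs to the log2 change. DESeq2 1.42.0, TMM, other filters and left-out replicates were alternatives. Scripts were tested on simulated data. Sequences came from GENCODE v44 and the study's siRNA list.

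Members and gene lists were chosen with earlier results of these data known. Named were, among called genes moving alike in 3 pairs with a mean of at least 50, the 12 largest rises, 8 smallest p among other risers and 5 largest falls, CTU2, the 3 smallest p and the most abundant member of each list, and the 3 smallest p each way in the differences. Extra gene copies were left out, and not every gene the rule named is described. An item withheld for evaluation is not reported here. Decay groups and siRNA matches were chosen after values were seen.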

Additional observations from a re-analysis of the deposited data

Results flagged for a closer look

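The effect of cycloheximide at 3 h differed between siCTU2 and siGL2 cells, by the test of the difference itself, for 11 genes named above (log2, siCTU2 minus siGL2). It was larger in siCTU2 cells by 1.15 for PHC2, 1.03 for TMEM158, 0.75 for ZFP36L2 and 0.61 for IRS2. It was smaller or more negative by -1.16 for DUSP6, -1.08 for TMX1, -1.07 for KLF6, -1.04 for LASP1, -0.99 for CCT3 and -0.96 for BAMBI. For TRNA the difference was -6.81, and it rests on replicate 3 of T in siCTU2 cells (1050.4 normalised counts) and replicate 2 of TCHX in siGL2 cells (1157), each far above the other libraries of its group. Among the 11 genes, PHC2 and TMX1 alone passed in all 11 alternative fits. Groups of 3 libraries were not screened for outlying samples.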

How the results depend on the processing

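With siCTU2 cells at 3 h, 2665 genes were higher and 151 lower. Without the replicate block the counts were 1590 and 13, with TMM scaling 1719 and 1298, with DESeq2's Wald test 1715 and 41, with DESeq2 size factors over all genes 1650 and 1556, against a 1.5-fold change 500 and 5, and over all 18 siCTU2 libraries 451 and 0 (edgeR). With the 0 h difference subtracted 72 were lower, and with TMM scaling as well, an alternative chosen after seeing the data, 1172 were higher and 821 lower. Stable genes chosen without the 5 h libraries gave 878 lower genes. Leaving out a replicate gave 1684 to 2455 higher and 76 to 107 lower genes.

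At 0 h 347 genes passed, against 0 without the replicate block, 211 with TMM scaling and 22 to 1034 without a replicate. At 5 h 0 passed, against 357 without the block, 97 with TMM scaling, 1 to 719 without a replicate, and 1018 without replicate 3 with TMM scaling. In siGL2 cells at 3 h 2020 passed, against 818 without the block, 1121 with DESeq2, 805 with genes stable at both times, and 1112 to 1619 without a replicate. For the difference between siCTU2 and siGL2 cells 115 passed, against 4 without the block, 74 with DESeq2, 244 without a filter, 26 with genes stable at both times, 56 with stable genes chosen without 5 h, 41 to 189 without a replicate and 33 without replicate 3 with TMM scaling. For 5 h minus 3 h 0 passed, and 5 without replicate 3 with TMM scaling. The TDD difference of 0.0469 stayed positive at 0.00106 to 0.109. Over all coding transcripts the medians of the higher genes were 1548 bases of coding length, 1163 bases of 3′ UTR and 13.7% with the nonamer.

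Of the 76 named and tested genes, direction turned with the 0 h difference subtracted for NDUFB7 (0.16) and ANXA5 (0.10), with TMM scaling as well for H4C3 (-0.13). The cause of these changes was not tested. Scaling and the small number of replicates limit the small changes, and low read counts in T limit several of the large folds.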
